A study of Oryza sativa with 4 samples.

Results

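The panicles compared here came from plants of the wild type (WT) and of *phoenix* (*pho*), a rice mutant whose flowers are replaced by young plantlets, and they had reached 9–12 cm by the sample labels. WT was the *indica* cultivar Zhongxian 3037, and *pho* combines a point mutation in *OsMADS15* with silencing of *OsMADS1*. The plants stood in paddy fields (Beijing), and the total RNA of panicles was measured on Affymetrix GeneChip Rice Genome Arrays. There was 1 array for WT and 1 array for *pho* at this length, out of 4 arrays in the series, the other 2 being from panicles of 5–8 cm of the same genotypes. The array has 57258 probe sets besides its controls, and the 24493 whose mean signal over the 2 arrays reached 100 were ranked by the log2 ratio, log2((*pho* + 16)/(WT + 16)), of their MAS5 signals. A negative log2 ratio means a lower signal in *pho*, and every log2 ratio below is on this scale, which understates the change of a gene with low signals. With 1 array per genotype no replicate error exists and no p value can be given. Every ratio compares 2 arrays and may hold differences between those samples that are not due to genotype.

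In grasses that reproduce by pseudovivipary, the spikelet, the small unit of the panicle that holds the floret, grows out as a leafy shoot in place of forming a flower. The identity of the floral organs is set by MADS-box transcription factors, which act in complexes. *OsMADS1* is a SEPALLATA-like member that specifies the lemma, the palea and the floral meristem, and *OsMADS15* is an APETALA1-like member. Later in a WT panicle the anthers form, and their tapetum, the innermost wall layer, feeds the meiotic cells and makes the coat of the pollen grain.

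The labels of the longer WT sample conflict, since its title and genotype give WT whereas 1 of its description lines speaks of *pho*; it was used as WT. *OsMADS1* gave 10671 in that array, close to its 10166 in the WT array of 5–8 cm and far above the 109 and 4.6 of the *pho* arrays of 9–12 cm and 5–8 cm. The study's methods describe panicles of 5–8 cm, so that the source of the longer panicles rests on the labels. Nothing says whether the arrays came from separate plants, nor at what time of day the panicles were cut. The median signal was 60.5 in the WT array and 68.1 in the *pho* array. The ratio of the 3′ to the 5′ probe set, a measure of RNA integrity and labelling, was 4.95 in WT and 5.26 in *pho* for 1 actin pair, 11.5 and 9.21 for another, and 9.62 and 11.0 for GAPDH. The arrays of 5–8 cm differed more in this ratio, with 10.6 in WT and 3.28 in *pho* and 16.3 and 7.34 for the actin pairs and 16.4 and 6.87 for GAPDH, and its part in the ratios at 5–8 cm was not tested. Across the ranked probe sets, the *pho* array of 9–12 cm had a Pearson correlation of log2 signal of 0.799 with the WT array of the same length and of 0.832 with the *pho* array of 5–8 cm, compared with 0.933 between the 2 WT arrays.

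Of the ranked probe sets, 1420 (5.80%) were at least 4-fold higher and 565 (2.31%) at least 4-fold lower in *pho*, and 3471 (14.2%) and 2480 (10.1%) were at least 2-fold higher and lower. The log2 ratio ranged from -8.90 to 7.88, with a median of -0.08. Nearest to the 4-fold limits, the log2 ratio was 2.00 on both sides of the upper one, and -2.00 inside and -1.99 outside the lower one. Between the 2 WT arrays, which also differ in panicle length, 2.35% of the same ranked probe sets were 4-fold apart in either direction, against 8.10% between *pho* and WT at 9–12 cm. A total of 17012 ranked probe sets had 1 gene in the annotation and stood for 14719 genes, of which 2143 had a name. Among these genes 14.4% were at least 2-fold higher and 10.0% at least 2-fold lower, with a median log2 ratio of -0.10, and 5.89% and 2.32% were at least 4-fold higher and lower. The counts of named groups below are read against these shares. A gene that reached the minimum only through the array where it was high had to differ, so that shares within a group describe the measured genes only.

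**Figure D1:**
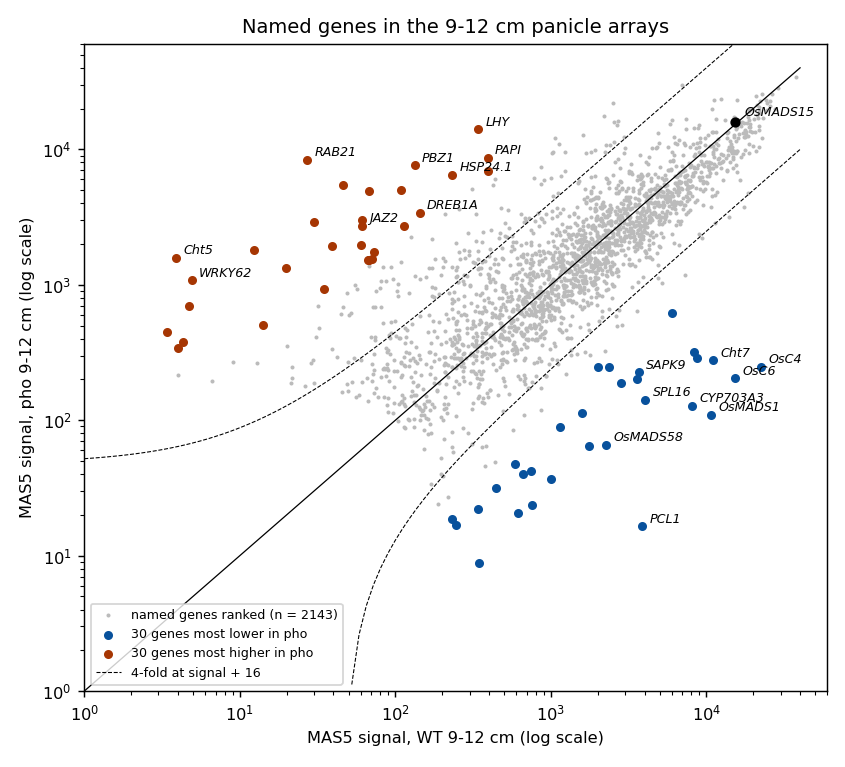
MAS5 signal of the 2143 ranked named genes in the WT array (horizontal, log scale) and the *pho* array (vertical, log scale) of 9–12 cm panicles; the solid line marks equal signals and the dashed lines a 4-fold ratio after adding 16. *OsMADS15* lies on the line of equal signals, and *OsMADS1* with 109 in *pho* lies far below it.

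Floral MADS-box genes made up 9 of the 30 named genes with the lowest ratios. Of 25 such genes with a probe set of their own, 20 were ranked, and 12 of these were at least 2-fold lower and 4 at least 2-fold higher in *pho*, with a median log2 ratio of -2.30. *OsMADS1* had the lowest ratio of them (10671 in WT, 109 in *pho*, log2 ratio -6.41). *OsMADS15*, the other gene mutated in *pho*, had nearly equal signals, 15321 in WT and 16022 in *pho* (log2 ratio 0.06). Its 4 ranked probe sets lay between 0.06 and 0.51. The mutation known in that gene is a base substitution, and an array signal does not tell a mutant transcript from a normal one. In bulk panicle RNA, fewer cells of a type and less RNA per cell cannot be told apart.

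The SEPALLATA-like partners of *OsMADS1* were low in *pho* as well. *OsMADS7* had 8723 in WT and 288 in *pho* (log2 ratio -4.84), *OsMADS8* had 8361 and 319 (-4.65), and *OsMADS5* had 6022 and 620 (-3.25). *OsMADS34*, a SEPALLATA-like gene that acts earlier in panicle branching, differed from them with 616 in WT and 786 in *pho*. Among the class C genes, which specify stamens and carpels, *OsMADS58* went from 2256 to 65.9 (-4.79) and *OsMADS3* from 658 to 39.8 (-3.59). The ovule gene *OsMADS13* had 247 in WT and 16.8 in *pho* (-3.0).

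Class B genes, which give lodicules and stamens their identity, kept more of their signal. *OsMADS4* had 2023 in WT and 248 in *pho* (log2 ratio -2.95), *OsMADS2* had 7331 and 1184 (-2.61), and *OsMADS16* had 11380 and 2868 (-1.98). The AGL6-like genes *OsMADS17* (2364 and 246, -3.18) and *OsMADS6* (4323 and 1602, -1.42) were also lower. In all 12 lower members, both *pho* arrays lay below both WT arrays when the 5–8 cm panicles were set beside these.

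The 4 MADS-box genes that were at least 2-fold higher in *pho* belong to the families of meristem and flowering-time genes. They were *OsMADS22* (1104 in WT, 4750 in *pho*, log2 ratio 2.09) and *OsMADS55* (340 and 1309, 1.90), which resemble the floral repressor SVP of *Arabidopsis*, and *OsMADS50* (357 and 1334, 1.85), which resembles SOC1. The fourth was *OsMADS14* (1879 and 5303, 1.49), an APETALA1-like gene. Its 4 ranked probe sets lay between 0.44 and 1.49, so that only part of them passed 2-fold.

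Some other regulators of the floret stood at the low end, although the lists they belong to did not all do so. *SPL16*, an SBP-box gene known for grain shape, had 4055 in WT and 141 in *pho* (log2 ratio -4.70), and it is the direct neighbour of *OsMADS7* in the gene annotation. *SL1*, a zinc-finger gene whose loss turns stamens into carpels, had 615 in WT and 20.5 in *pho* (-4.11). *YAB1*, a YABBY gene, had one of the strongest WT signals of this group, 17445, and 3768 in *pho* (-2.21). *DL*, the YABBY gene of the carpel and the leaf midrib, had 673 and 215 (-1.58), and in the shorter panicles 858 (WT) and 405 (*pho*). Of the 7 ranked YABBY genes with *LG1*, 2 were at least 2-fold lower and 0 higher. In the list of panicle branching and spikelet identity, which holds *SL1*, 9 genes were ranked. There 2 were at least 2-fold lower and 0 higher, with a median log2 ratio of -0.20. The 12 ranked SPL genes, which include *SPL16*, had a median of 0.53.

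Genes of the tapetum and the pollen wall were the list with the lowest median log2 ratio, -3.63. Of 13 members with a probe set, 11 were ranked, and 10 of them were at least 2-fold lower and 0 higher in *pho*. *OsC4*, an anther-specific gene, had 22432 in WT and 249 in *pho* (log2 ratio -6.41). *OsC6*, which codes for a lipid transfer protein of the pollen wall, had 15333 in WT and 204 in *pho* (-6.12). *CYP703A3*, a fatty acid hydroxylase needed for the pollen coat, had 8069 and 128 (-5.81), and *RAFTIN1*, a tapetal protein deposited near the pollen, had 1763 and 64.8 (-4.46).

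The bHLH regulators that switch on the tapetal programme were low together with its products. *EAT1* had 1007 in WT and 36.6 in *pho* (log2 ratio -4.28), *TDR* 1585 and 113 (-3.63), and *TIP2* 1140 and 88.6 (-3.47). *MSP1*, a receptor kinase that limits the number of germ cells, went from 4876 to 1127 (-2.10). *MIL2*, with 134 in WT and 228 in *pho*, was the only ranked member with a positive ratio.

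Several tapetal products had far higher signals in the longer than in the shorter WT panicles. *OsC6* was at 47.0 in the WT array of 5–8 cm and *CYP703A3* at 297, and *OsC4* was at 4194 in the shorter and 22432 in the longer WT panicles. Of the regulators, *TDR* was at 789 and 1585, *EAT1* was at 878 and 1007, and *TIP2* at 1644 and 1140, in the shorter and the longer WT panicles.

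Of the 10 meiosis and germ cell genes with a probe set, 7 were ranked, 2 of them at least 2-fold lower and 0 higher (median log2 ratio -0.74). *PAIR2*, a protein of the chromosome axis needed for pairing, had 590 in WT and 47.7 in *pho* (-3.25). *MEL1*, an Argonaute gene of the germ cells, had 1111 and 259 (-2.04). *MSH5*, *HEI10* and *OsRPA70a*, which serve recombination, had log2 ratios of -0.27, -0.06 and 0.11. The members not ranked for low signal were *MER3* (148 in WT, 12.9 in *pho*), *OsSDS* (133.5 and 62.1) and *PAIR1* (86.4 and 89.3).

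Several other genes among the 30 lowest code for enzymes, transport proteins or kinases. *Cht7*, a chitinase gene, had 11084 in WT and 277 in *pho* (log2 ratio -5.25), although other chitinase genes stood at the opposite end. *PIP2-7*, an aquaporin, had 3584 and 201 (-4.05). *SAPK9*, a kinase of abscisic acid signalling, had 3687 and 226 (-3.94), but at 5–8 cm its signals were close, at 441 (WT) and 489 (*pho*). *CIN2*, a cell wall invertase that feeds sugars into sink organs, had 2830 and 188 (-3.80).

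The endoglucanase genes *GLU12* (444 and 31.7, -3.27) and *GLU14* (232 and 18.7, -2.84) were low only in the *pho* array of 9–12 cm, since at 5–8 cm *GLU12* had 745 in WT and 728 in *pho* and *GLU14* 242 and 284. The remaining genes of the 30 lowest were *OsC3H47* (log2 ratio -4.29), the homeobox gene *TF1* (-3.85), *ILL8* (-3.69) and *HGGT*, an enzyme of tocotrienol synthesis (-3.21).

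**Figure D2:**
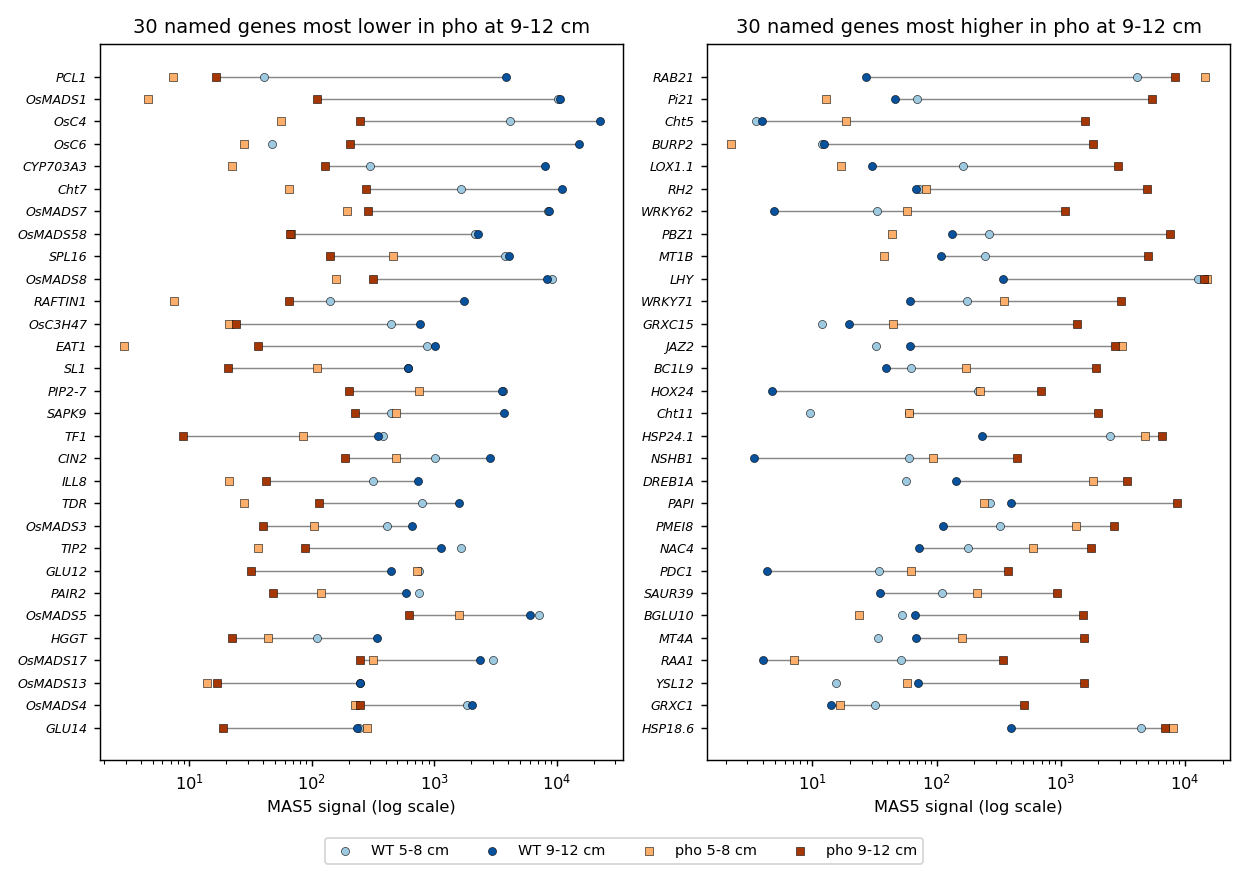
MAS5 signal (log scale) of the 30 named genes with the lowest and the 30 with the highest log2 ratio at 9–12 cm, in each of the 4 arrays; the line joins the 2 arrays of 9–12 cm. For *OsMADS1* both WT arrays lie at or above 10166 and both *pho* arrays at or below 109, whereas for *RAB21* the WT array of 9–12 cm, at 27.2, lies apart from the other 3.

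The highest ratios belonged to genes of other processes, and MADS-box genes were absent from the 30 highest, whose log2 ratios ran from 4.07 to 7.60. In 15 of these 30 the WT signal lay under the array's median signal of 60.5, and in 14 of the 30 lowest the *pho* signal lay under its array's median of 68.1, so that these ratios depend on the constant of 16. *RAB21*, a dehydrin gene induced by abscisic acid and drought, had the highest ratio, with 27.2 in WT and 8350 in *pho* (log2 ratio 7.60, and 4.70 for its other ranked probe set). Its signals at 5–8 cm were 4089 in WT and 14466 in *pho*. The low value was thus that of the WT array of 9–12 cm, and the *pho* signal was not the highest of the series.

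*RAB16B*, the direct neighbour of *RAB21* in the annotation and also a dehydrin gene, had 56.6 in WT and 934 in *pho* (log2 ratio 3.71). *EM*, a late embryogenesis protein gene, had 74.7 and 902 (3.34). *ABA8OX1*, which breaks down abscisic acid, had 423 and 5450 (3.64). At 5–8 cm *ABA8OX1* had 274 in WT and 3005 in *pho* (log2 ratio 3.38), *EM* 846 and 8140 (3.24) and *RAB16B* 444.5 and 2589 (2.50). All of these were thus at least 4-fold higher in *pho* at both lengths. *RAB21* was also higher in *pho* at 5–8 cm, by 1.82 on the log2 scale, but far less than at 9–12 cm. *HOX24*, an HD-Zip gene that responds to drought, had 4.7 in WT and 692 in *pho* (5.10), against 215 and 223 at 5–8 cm.

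Of 79 ranked genes of ethylene and abscisic acid, 16 were at least 2-fold higher and 7 at least 2-fold lower, and the median log2 ratio was 0.27. For all ranked genes these shares were 14.4% and 10.0%.

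Many of the ranked genes of heat shock proteins and heat shock factors were higher in *pho*. Of 46 with a probe set, 39 were ranked, and 23 of these were at least 2-fold higher and 0 lower (median log2 ratio 1.18). The 7 not ranked for low signal went both ways. Among them *HSP21.9* had 104 in WT and 12 in *pho*, *HSF02* 72.5 and 21, *HSP17.8* 61.6 and 20.3 and *HSP16.6* 25.7 and 11.8. By contrast *HSP16.0* had 11.4 and 166, *HSF2* 5.1 and 162 and *HSP18.1* 85.7 and 108. *HSP24.1* had 233 in WT and 6461 in *pho* (4.70), *HSP18.6* had 394 and 6886 (4.07), and *HSP16.9A* had 125 and 2270 (4.02). The HSP90-type genes *HSP81-1*, *HSP81-2* and *HSP81-3* stayed near equal, with log2 ratios of 0.03, -0.11 and 0.24. In 16 of the 23 genes the WT array of 9–12 cm had the lowest signal of the 4 arrays, and in 18 the *pho* array of 9–12 cm had the highest. Taking genes that were 2-fold higher in *pho* at this length favours such an order. For *HSP24.1* the 5–8 cm arrays had 2471 in WT and 4715 in *pho*, and for *HSP18.6* 4393 and 7978, so that the WT array of 9–12 cm had the lowest signal. For *HSP16.9A* the *pho* array of 9–12 cm stood apart instead, the 5–8 cm arrays having 108 in WT and 213 in *pho*.

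Genes of the circadian clock, a loop of morning and evening transcription factors, gave some of the largest ratios in both directions. *PCL1*, an evening component in *Arabidopsis*, had the lowest ratio of all named genes with the constant of 16, with 3857 in WT and 16.5 in *pho* (log2 ratio -6.90). With a constant of 64 its ratio was -5.61, above those of *OsC4* (-6.17), *OsMADS1* (-5.95) and *OsC6* (-5.84). *LHY*, a MYB gene of the morning, had 340 in WT and 14071 in *pho* (5.31). *PRR1*, which resembles the evening gene TOC1, had 1353 and 301 (-2.11), and *GI*, another gene of the late day, had 8978 and 2355 (-1.92).

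For each of these 4 genes the WT array of 9–12 cm stood apart from the other 3. *LHY* was at 12714 in WT and 14906 in *pho* at 5–8 cm. *PCL1* was at 40.7 and 7.3, *PRR1* at 429 and 479, and *GI* at 1265 and 1276 in the same arrays. *OsPRR95* (2153 in WT, 4115 in *pho*) and *OsPRR73* (2834 and 3283), of the same family as *PRR1*, differed by under 2-fold. The labels give no time of collection, so that a difference in the time of day between the WT and the *pho* sample and a difference due to genotype cannot be told apart. Over the 13 ranked genes of flowering time and the clock, 4 were at least 2-fold higher and 3 lower, with a median log2 ratio of 0.29.

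**Figure D3:**
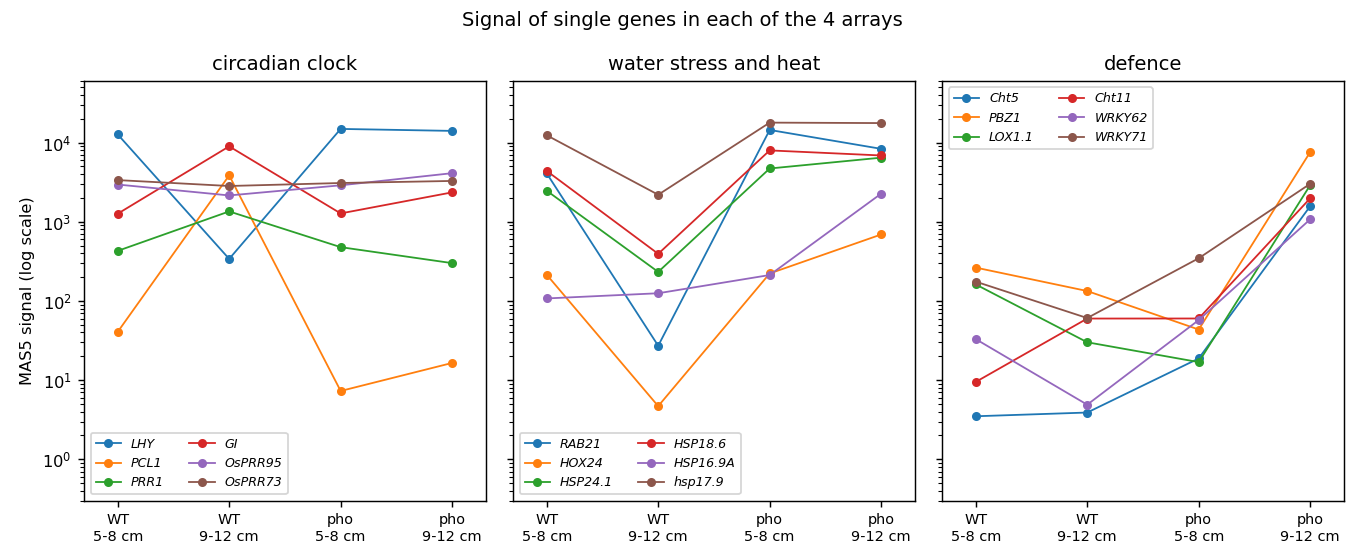
MAS5 signal (log scale) of 18 single genes in the 4 arrays, by process; lines join the arrays of a gene. The clock genes *LHY* and *PCL1* and most of the drought and heat genes depart in the WT array of 9–12 cm, and the defence genes, such as *Cht5* with 1575, are high only in the *pho* array of 9–12 cm.

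Defence proteins, in particular chitinases and pathogenesis-related proteins, were high in the *pho* array of 9–12 cm. Of 24 such genes with a probe set, 20 were ranked, of which 15 were at least 2-fold higher and 1, *Cht7*, at least 2-fold lower (median log2 ratio 1.83). *Cht5*, a chitinase, had 3.9 in WT and 1575 in *pho* (6.32), and *Cht11*, another chitinase, had 60 and 1983 (4.72). *PBZ1*, a pathogenesis-related protein of the PR10 family induced by the fungicide probenazole, had 134 and 7603 (5.67). In 15 of the 16 genes past 2-fold the *pho* array of 9–12 cm had the highest signal of the 4 arrays. All of these genes but *Cht7* were taken for a higher signal in that array than in WT, which favours such an order. At 5–8 cm *Cht5* had 3.5 in WT and 18.8 in *pho*, and *PBZ1* had 264 and 43.6.

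Next to these stood *Pi21*, a gene whose product makes plants more susceptible to rice blast, with 45.9 in WT and 5438 in *pho* (log2 ratio 6.46, and 3.79 for the other probe set). *LOX1.1*, a lipoxygenase, had 30.1 and 2908 (5.99). *PAPI*, of the lipid transfer proteins, had 393 and 8675 (4.41). The lectin gene *salT*, which responds to salt, had one of the strongest signals, 30061 in *pho* and 6956 in WT (2.11), but at 5–8 cm it was the WT array that was higher, with 9144 against 488. *RH2*, *BURP2*, *BGLU10* and *RAA1* were also among the 30 highest, with log2 ratios of 5.88, 6.0, 4.21 and 4.16. The other ranked probe set of *BURP2* was at 3.50. The 3 ranked probe sets of *BGLU10*, a beta-glucosidase gene, ranged from 0.10 to 4.21.

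Transcription factors of stress and defence were among the highest genes. *WRKY62* had 4.9 in WT and 1076 in *pho* (log2 ratio 5.71), *WRKY71* had 60.9 and 3022 (5.30, and 2.67 for its other probe set), and *WRKY76* had 109 and 1481 (3.58). *WRKY62* and *WRKY76* are direct neighbours in the annotation. The list of WRKY genes was short, with 5 ranked members under a name, 3 of them at least 2-fold higher.

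Of 8 NAC genes with a probe set, 5 were ranked, and all 5 were at least 1.91 higher on the log2 scale. Among them *NAC4* had 72.6 in WT and 1751 in *pho* (4.32), *SNAC2* 255 and 3647 (3.76), and *NAC67* 316 and 1466 (2.16). The 3 not ranked for low signal went both ways. They were *NAC076* (36.1 in WT, 8.5 in *pho*), *NAC010* (64.3 and 22.2) and *NAC45* (23.9 and 67.9). *DREB1A*, which responds to cold and drought, had 143 and 3417 (4.43). It was also higher in *pho* at 5–8 cm, with 57.1 in WT and 1808 in *pho*. Its family as a whole was not higher at 9–12 cm. Of 9 ranked AP2/ERF genes, 2 were at least 2-fold higher and 1, *DREB1G* (-1.12), lower, with a median log2 ratio of -0.04.

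Jasmonate genes differed mainly through the JAZ repressors, whose transcripts are induced by the hormone. Of 26 ranked genes of 35 with a probe set, 8 were at least 2-fold higher and 1 lower (median log2 ratio 0.61). *JAZ2* had 61.0 in WT and 2726 in *pho* (5.15), *JAZ12* 208 and 3305 (3.89), and *JAZ11* 202 and 1589 (2.88). *JAZ9*, which lies beside *JAZ11* in the annotation, was the gene that was lower, with 1776 and 304 (-2.49). *JAZ2* and *JAZ9* differed alike at 5–8 cm (6.01 and -3.23). *AOS3*, of the allene oxide synthases that make jasmonate, had 71 and 194 (1.27).

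Among genes of photosynthesis, which is carried out mainly in leaves, all 4 ranked genes of the photosystems and light harvesting had a higher signal, 3 of them at least 2-fold (median log2 ratio 2.71). *LHCP*, a chlorophyll-binding antenna protein, had 2500 in WT and 22086 in *pho* (3.14). *PSAG* and *PSAH*, subunits of photosystem I, had 245 and 2029 (2.97) and 1160 and 6383 (2.44). The summed signal of the 4 genes was 16340 in WT and 54202 in *pho*, against 26775 and 33367 at 5–8 cm.

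Rubisco and the Calvin cycle followed the same direction, with 5 of 7 ranked genes at least 2-fold higher and 0 lower (median log2 ratio 1.68). *RBCS*, the small subunit of Rubisco, had 1134 in WT and 11042 in *pho* (3.27), and its 3 probe sets ranged from 1.20 to 3.27. The chloroplast aldolase *ALDP* had 1023 and 9466 (3.19), and *rca*, the Rubisco activase, had 1225 and 9604 (2.95). These 3 genes were also higher in the *pho* array of 5–8 cm, by 0.78, 1.88 and 0.65 on the log2 scale.

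Of 11 ranked genes of chlorophyll synthesis and chloroplast development, 8 were at least 2-fold higher and 0 lower (median log2 ratio 1.61). *PORA*, which makes chlorophyll in the light, had 866 in WT and 7392 in *pho* (3.07), *CHLP* 997 and 6103 (2.59) and *CHLH*, a subunit of magnesium chelatase, 410 and 2558 (2.59). The 2 probe sets of *CHLH* disagreed, the weaker being at -2.04. *GLK1*, a transcription factor of chloroplast development, had 247 and 1136 (2.13). In 7 of the 8 genes the WT array of 9–12 cm had the lowest of the 4 signals and in all 8 the *pho* array of 9–12 cm had the highest. Taking genes that were 2-fold higher in *pho* at this length favours that order, and its share over all genes was not counted. The clock genes stood apart in the same WT array, and their part in this result was not tested.

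Of 26 ranked genes of lignin and the phenylpropanoids, 12 were at least 2-fold higher and 1 lower (median log2 ratio 0.89). *LAC7*, a laccase, had 67.6 in WT and 1380 in *pho* (4.06). *ZB8*, a phenylalanine ammonia-lyase gene, had 83.4 and 1348 (3.78) with a second probe set at 3.77, and the coenzyme A ligase *4CL2* had 69.9 and 415 (2.33). Expansins, which loosen walls of growing cells, were more often lower, with 9 of 19 ranked genes at least 2-fold lower and 3 higher (median -0.89). *EXPB7* had 2671 and 496 (-2.39), whereas *EXPL1*, an expansin-like gene, had 312 and 5107 (3.96) and *EXPA1* had 6.6 and 194 (3.22). Cellulose synthase and secondary wall genes were close to the background, with 5 of 26 at least 2-fold higher and 1 lower.

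Of 54 ranked cyclin and cell cycle genes, 7 were at least 2-fold lower and 2 at least 2-fold higher in *pho* (median log2 ratio -0.55), the former being near the 10.0% of all genes. A log2 ratio below 0 was found for 42 of the 54, and for 55.4% of all ranked genes. *CYCB1;1*, a mitotic cyclin, had 490 in WT and 117 in *pho* (-1.93), and *CYCD2-2* had 680 and 184 (-1.80). *SMR1*, of a family of inhibitors of the cell cycle, had 899 and 5974 (2.71). Of 5 ranked histone genes, 1, *H2B.7*, was at least 2-fold lower (10936 and 5074, -1.11). At 5–8 cm the median of the cyclin list was 0.18.

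DNA methylation and Polycomb genes had a median log2 ratio of -0.25, with 5 of 16 ranked genes at least 2-fold lower and 0 higher. *SHL2*, an RNA-dependent RNA polymerase of the small RNA pathway, had 984 in WT and 337 in *pho* (-1.50). *OsMET1b*, a maintenance DNA methyltransferase, had 2511 and 984 (-1.34), and *AGO1D*, an Argonaute gene, had 9481 and 3860 (-1.29). *OsMET1b* was at 3062 in WT and 3054 in *pho* at 5–8 cm.

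**Figure D4:**
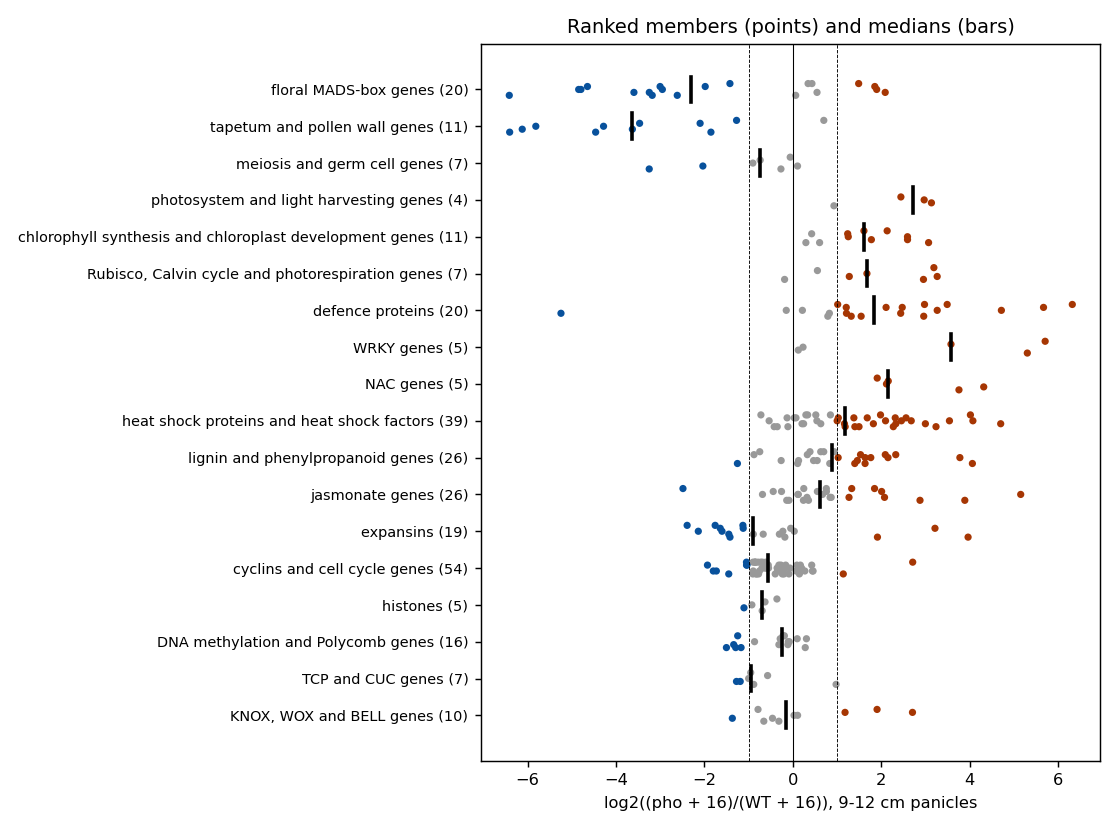
Log2 ratio of *pho* to WT at 9–12 cm (horizontal) of the ranked members of 18 gene lists, with the number of members in brackets; each point is a gene, black bars are medians, and dashed lines mark 2-fold. The tapetum list has the lowest median (-3.63), and the WRKY (3.58) and photosystem (2.71) lists have the highest, on 5 and 4 genes.

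Hormone lists held single large ratios within medians near that of all genes. Of 52 ranked auxin genes, 7 were at least 2-fold higher and 7 lower (median log2 ratio -0.25), led by *SAUR39* (34.9 in WT, 930 in *pho*, 4.22), *IAA6* (282 and 1588, 2.43) and *OsARF16*, a response factor (2886 and 509, -2.47). Of 27 ranked cytokinin genes, 5 were at least 2-fold higher and 4 lower. *LOGL5*, an activating enzyme, had 144 and 1101 (2.80), and *RR9*, a response regulator, had 758 and 193 (-1.89). Among 11 gibberellin genes, *gid1*, the receptor, had 2717 and 8435 (1.63), and *EUI1*, which inactivates the hormone, had 611 and 213 (-1.45). Of 19 ranked cytochrome P450 genes, 5 were at least 2-fold higher and 5 lower, and the latter included *DWARF* (1753 and 465, -1.88) and *CYP724B1* (839 and 286, -1.50), enzymes of brassinosteroid synthesis.

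Regulators of panicle shape and leaf form held ratios in both directions. *SPL14*, which limits tillering and promotes branching of the panicle, had 817 in WT and 267 in *pho* (log2 ratio -1.56), *SPL12* had 3622 and 1053 (-1.77) and *SPL2* 2590 and 8039 (1.63). Of 12 ranked SPL genes, 3 were at least 2-fold higher and 3 lower. *PCF5* and *PCF8*, of the TCP family, were at 2054 and 840 (-1.27) and at 1714 and 742 (-1.19), the second probe set of *PCF8* being at -0.42. *GRF1* had 1322 and 507 (-1.36) and *GRF4* 1744 and 714 (-1.27), and 7 other ranked growth-regulating factor genes were within 2-fold.

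Of the 10 ranked KNOX, WOX and BELL genes, 3 were at least 2-fold higher and 1 lower. *HOS66* had 531 in WT and 3551 in *pho* (2.71), *OSH45* had 346 and 1338 (1.91) and *OSH43* had 370 and 134 (-1.37). *OSH1*, the marker of the shoot meristem, had 5843 in WT and 3378 in *pho* (-0.79), and its other probe set was at -1.23.

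Carbohydrate and mineral transport genes were divided. Of 36 ranked sucrose and starch genes, 7 were at least 2-fold higher and 7 lower. The cell wall invertases *CIN1* and *CIN2* stood on opposite sides, *CIN1* having 104 in WT and 1013 in *pho* (log2 ratio 3.11), and the sucrose synthase *SUS3* had 862 and 119 (-2.70). Of 78 ranked aquaporin and mineral transport genes, 22 were at least 2-fold higher and 9 lower. The metallothioneins *MT1B* (108 and 5054, 5.35) and *MT4A* (67.6 and 1523, 4.2) led the first, followed by *YSL12*, of the family that carries metal chelates (71.3 and 1541, 4.16). *MT1B* was lower in *pho* at 5–8 cm, with 245 in WT and 37.9 in *pho*.

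Redox enzymes held 12 genes at least 2-fold higher and 4 lower among 51, led by the glutaredoxins *GRXC15* (19.8 in WT, 1340 in *pho*, 5.24) and *GRXC1* (14.1 and 504, 4.11). Outside the lists, the 30 highest genes also held *PDC1*, pyruvate decarboxylase of alcoholic fermentation, with 4.3 and 377 (4.28), and *NSHB1*, a haemoglobin gene, with 3.4 and 445 (4.57). The probe sets of *NSHB1* ranged from 1.39 to 4.57. *PMEI8*, an inhibitor of pectin methylesterase, had 113 and 2701 (4.40), and *BC1L9*, of the COBRA-like family, had 39.3 and 1933 (5.14). The other ranked probe set of *BC1L9* was at 3.35.

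The other lists of transcription factors held both directions. Of 9 ranked MYB genes, 6 were at least 2-fold higher and 1 lower, the latter being *GAM1*, a gibberellin-dependent regulator of anthers, with 2118 in WT and 575 in *pho* (log2 ratio -1.85). Of 29 ranked HD-Zip genes, 6 were at least 2-fold higher and 6 lower. *HOX12* (1226 and 6911, 2.48) stood on the first side and *HOX4* (6686 and 1951, -1.77) on the second. Of 11 ranked bHLH genes, 1, *BHLH148* (31 and 411, 3.18), was at least 2-fold higher and 3 were lower, the tapetal genes above. The 4 ranked genes of seed storage and LEA proteins had a median log2 ratio of 1.34.

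The ratios were next set beside the 5–8 cm arrays, which share no array with the comparison of 9–12 cm. Of the 565 probe sets at least 4-fold lower at 9–12 cm, 464 (82.1%) also had a lower signal in *pho* at 5–8 cm, and 141 (25%) were at least 4-fold lower there. Of the 1420 at least 4-fold higher, 973 (68.5%) had the same sign at 5–8 cm, and 95 (6.69%) were at least 4-fold higher there. A 4-fold difference of opposite sign was found for 25 of the higher and 0 of the lower probe sets. For comparison, 22917 probe sets reached the minimum mean signal over the arrays of 5–8 cm. Of these, 1.06% were at least 4-fold higher and 0.93% at least 4-fold lower in *pho* at that length. The log2 ratios of the ranked probe sets had an SD of 0.70 at 5–8 cm and 1.18 at 9–12 cm. The share of all ranked probe sets with either sign at 5–8 cm was not counted. Among named genes, 21 of the 30 lowest and 2 of the 30 highest, *JAZ2* and *DREB1A*, were at least 4-fold apart in the same direction at 5–8 cm.

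For the calls that were not 4-fold the same way at 5–8 cm, the 2 arrays of 9–12 cm were each compared with the mean log2 signal of the 2 arrays of 5–8 cm, a description added after the values were seen. Of the 1420 higher probe sets, the *pho* array lay farther from that mean in 1091 (76.8%) and the WT array in 234 (16.5%). Of the 565 lower ones, the *pho* array lay farther in 247 (43.7%) and the WT array in 177 (31.3%). Between the lengths within a genotype, 7.37% of the ranked probe sets were 4-fold apart in *pho* and 2.35% in WT. Panicle length and sample cannot be told apart in these comparisons.

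**Figure D5:**
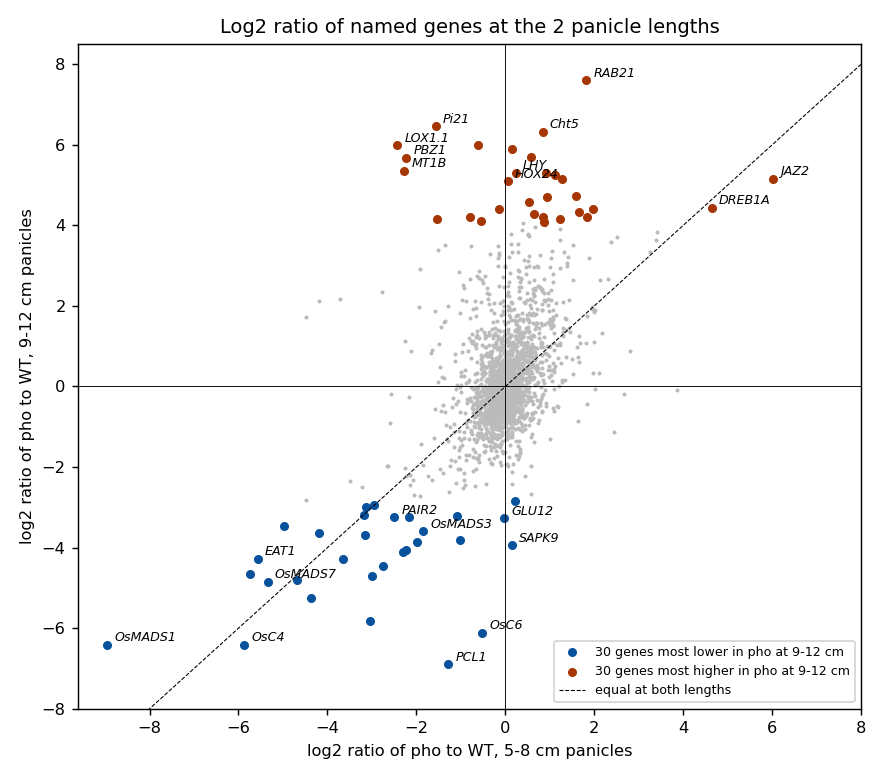
Log2 ratio of *pho* to WT of the 2143 ranked named genes in 5–8 cm (horizontal) and 9–12 cm (vertical) panicles; the dashed line marks equal ratios. Most of the 30 genes lowest at 9–12 cm lie at the lower left, as *OsMADS7* does (-5.35 and -4.84), whereas 15 of the 30 highest lie within 2-fold on the horizontal axis, as *LHY* does (0.23 and 5.31), and 10 and 5 lie beyond it in the same and the opposite direction.

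As a yardstick within the pair of arrays, 1898 genes had at least 2 ranked probe sets, and the log2 ratios of the probe sets of 1 gene had a pooled SD of 0.58. Of 184 such genes with a probe set past 4-fold, 73 had all their probe sets past 4-fold in the same direction and 20 had probe sets of opposite sign. Most of the 30 lowest and 30 highest named genes had a single probe set. Each of the 30 highest with several ranked probe sets was represented by the probe set with its largest ratio. Probe sets of gene families such as the chitinases, the small heat shock proteins or the metallothioneins may also share signal with close relatives.

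Most of the ranking lies outside the named genes. Among the 100 probe sets with the lowest ratios 70 had a gene in the annotation and 11 a named gene, and among the 100 highest 68 and 17. The probe set with the lowest ratio of all had 15747 in WT and 17.0 in *pho* (log2 ratio -8.90), with 5.9 and 0.9 at 5–8 cm, and no gene in the annotation used. The highest had 25.6 in WT and 9806 in *pho* (7.88), with 13.2 and 137 at 5–8 cm, and its gene has no name.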

How the data were processed

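The authors hybridized RNA of each panicle sample to 1 Affymetrix GeneChip Rice Genome Array and summarized the probe sets with MAS5 in GCOS (both named in the submitters' processing notes, versions not given in the sources used here). The deposited values are signal intensities on a linear scale, brought by the authors to a common overall level per array, so that only relative signals can be compared. The number of arrays limits the precision.

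From these intensities, the 123 AFFX controls were left out, 16 was added to each signal, and probe sets whose mean over the 2 arrays of 9–12 cm reached 100 were ranked by log2 ratio. No further normalization and no test were applied. The arrays of 9–12 cm carry replicate number 2 and those of 5–8 cm replicate number 1. Identical signals were counted to check for duplicated arrays, and the pairs of arrays shared 106 to 236 of 57258. The ranking code was run on simulated signals with large changes planted only in probe sets of high signal. That run checks the code and cannot speak to ratios that rest on low signals.

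Probe sets were paired with genes through the platform annotation and the rice gene table of assembly ASM3414082v1: 22436 had 1 gene, 95 had several and 34727 none. A gene is represented by its ranked probe set with the highest mean signal. Names were taken from symbols and, since only 73 ranked genes have a symbol that is a name, also from synonyms. The genes to name were the 30 highest and 30 lowest, *OsMADS1* and *OsMADS15*, and up to 3 members of each of 39 lists; not all are printed. Genes printed beyond this rule (among them *GI*, *salT*, *OSH1*, *MSP1* and further MADS-box genes) were chosen after their values were seen. The members and lists were chosen with earlier results of these data known, and 69 genes that matched a list only through a shared name were taken out after values were seen. Calculations used pandas 2.3.3 and numpy 2.4.6 under Python 3.11.15, and plots matplotlib 3.10.9. The alternatives were other pseudocounts, filters and scalings, and other choices of probe set.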

Additional observations from a re-analysis of the deposited data

Results flagged for a closer look

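Genes named by the rule with at least 2-fold differences in opposite directions at the 2 panicle lengths are given here, and the differences were not tested, since there is 1 array per genotype and length. *Pi21* had a log2 ratio of *pho* to WT of 6.46 at 9–12 cm and -1.57 at 5–8 cm. *LOX1.1* had 5.99 and -2.43, *PBZ1* had 5.67 and -2.23, *MT1B* had 5.35 and -2.27, and *RAA1* had 4.16 and -1.54. The cold-response gene *DREB1G* went the other way, with -1.12 at 9–12 cm (347 in WT, 151 in *pho*) and 2.43 at 5–8 cm (14.7 and 150). In *RAA1*, 3 of the 4 signals lay under 60, so that its ratios rest on low values.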

How the results depend on the processing

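A pseudocount of 1 or 64, a minimum mean signal of 200 or none, quantile normalization, centring of the arrays, removal of probe sets able to match several transcripts, and the mean over the probe sets of a gene were tried. No named gene past 2-fold changed its direction, and 330 of 346 alternative values for counts and list medians stayed close to those reported. Medians near 0 changed sign in 3 lists: cytokinin genes (0.17 with a minimum of 200), KNOX, WOX and BELL genes (0.07 without a filter, 0.03 without probe sets that can match several transcripts) and cytochrome P450 genes (0.38 and 0.11 likewise). Each of 131 named genes had a value under the alternatives that applied to it. Of these values 74 moved by more than the spread between probe sets of a gene, and 953 did not. Of those that moved, 42 came with a pseudocount of 64 and 19 with a pseudocount of 1. The log2 ratio of Cht5 then was 4.59 and 8.33, and that of HOX24 3.46 and 6.93. With a pseudocount of 64 the probe sets at least 4-fold lower were 368, and those 4-fold higher or lower at both lengths were 57 and 89; with a pseudocount of 1 the probe sets 4-fold higher at both lengths were 158, and without probe sets that can match several transcripts 63. Without a filter, the probe sets at least 4-fold higher in pho were 2165, the probe sets at least 4-fold lower in pho 986, the probe sets at least 2-fold higher in pho 8664 and the probe sets at least 2-fold lower in pho 6519. The median log2 ratio then was -1.42 for floral MADS-box genes, -0.18 for expansins and 0.28 for seed storage and LEA proteins. With a minimum of 200 it was 2.96 for NAC genes and 2.24 for seed storage and LEA proteins (1.34 as reported with 4 genes). Without probe sets that can match several transcripts it was -4.28 for tapetum genes and 2.24 for seed storage and LEA proteins. No paired analysis was possible because the comparison of 9–12 cm panicles holds a single pair of arrays; for the same reason no array could be left out.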
